A study of Mus musculus with 14 samples.

Results

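Glucagon and 7 further genes known from pancreatic alpha cells were followed through RNA sequencing of sorted mouse islet cells. The genes were Gcg, Irx1, Irx2, Ttr, Slc38a5, Gc, Pou3f4 and Dpp4, and all 8 were found by symbol among the 52459 genes of the deposited count table. The cells came from dispersed islets of male C57BL/6J mice, an inbred strain, aged 7 months. They were parted by flow cytometry on the activity of beta-galactosidase at acidic pH, a lysosomal enzyme activity used as a marker of senescence. Positive cells (7 libraries, numbered 1 to 7) were compared with negative cells (7 libraries, numbered 1 to 7). No cell type was purified per the labels, so each library holds the RNA of mixed islet cells, and the labels do not say whether the numbers stand for separate animals. Total counts ranged from 15585779 to 24577025 in positive and from 11060144 to 23045934 in negative libraries.

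Alpha cells make up the islet's second endocrine population in the mouse and release glucagon when blood glucose is low, which drives the liver to make glucose. Their hormone is cut from proglucagon, the product of Gcg, by the convertase PC2 (Pcsk2), whereas PC1 (Pcsk1) cuts the same precursor to GLP-1 in gut cells. Irx1, Irx2 and Pou3f4 encode homeodomain or POU transcription factors of these cells. Slc38a5 encodes an amino acid transporter that links circulating amino acids to alpha cell growth. Ttr encodes transthyretin, a carrier of thyroid hormone and of the retinol-binding protein, and Gc the vitamin D-binding protein. Dpp4 encodes the protease that inactivates GLP-1 and GIP.

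On GRCm38, Gcg lies on the minus strand of chromosome 2 (62474530 to 62483650), and Dpp4 is its neighbour on the same strand (62330073 to 62412231), 62.3 kb away. Irx1 (71957921 to 71963723) and Irx2 (72628820 to 72634198) share chromosome 13. Slc38a5 (8271133 to 8280179) and Pou3f4 (110814280 to 110817207) are on chromosome X and Gc is on chromosome 5 (89417522 to 89457898). Among the members, Dpp4 alone overlapped another annotated gene, the antisense gene Gm13561, which held 27 counts over the positive and 22 over the negative libraries. The 250 bases before the RefSeq start (GRCm38.p6) are shown for Gcg and for Dpp4, the neighbour whose level ran against that of Gcg across the libraries. They read 5′ to 3′ along the gene's strand, from chr2:62483654-62483903 and chr2:62412232-62412481. Capitals mark matches, on either strand, to the homeodomain core TAAT, the FOXA words TGTTTAC (3.17% of all windows) and TATTTAC, the MAF word TGCTGA (16.1%) or the TATA word TATAAA, and neighbouring matches can overlap.
Gcg: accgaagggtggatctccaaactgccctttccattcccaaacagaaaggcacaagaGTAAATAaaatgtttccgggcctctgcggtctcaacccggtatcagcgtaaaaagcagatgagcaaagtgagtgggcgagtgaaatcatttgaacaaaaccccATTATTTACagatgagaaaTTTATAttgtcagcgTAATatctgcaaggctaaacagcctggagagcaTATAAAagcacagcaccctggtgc
Dpp4: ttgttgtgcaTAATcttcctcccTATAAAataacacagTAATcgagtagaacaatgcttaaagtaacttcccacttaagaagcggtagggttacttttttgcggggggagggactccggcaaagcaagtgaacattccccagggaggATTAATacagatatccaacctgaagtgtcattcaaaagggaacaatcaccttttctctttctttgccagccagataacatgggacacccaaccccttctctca
The Gcg window held TATTTAC with first bases at -194 and -89, TAAT at -91 and -57 and TATAAA at -72 and -24, counted back from the last base before the start, which is -1. TATTTAC was present in 2.72% of 32536 distinct promoter windows of this length, TATAAA in 12.3% and TAAT in 54.8%. The Dpp4 window held TAAT 4 times and TATAAA at -227. These are matches of letters only.

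None of the alpha cell genes differed between the groups by the test applied. Of the 8 members 7 had enough reads for the test, and 0 of them were called at an adjusted p below 0.05 (edgeR quasi-likelihood test, Benjamini-Hochberg adjusted over 16350 genes), where 8.03% of all genes tested were (6.4% higher, 1.63% lower). Their count was also 0 at an unadjusted p below 0.05 in edgeR, which 3457 of the 16350 genes tested reached. It was 0 as well with DESeq2, whose counts over all genes are given further below. With replicate numbers in the model as blocks it was again 0, where 19.6% of all genes were called. Over only 7 members, a count of 0 does not set them apart from all genes. Of the 7, 5 had log2 fold changes below 0, and the median was -0.32, against 0.00 over all genes. Without the libraries numbered 6 and 7 the log2 fold changes were -1.04 for Irx1, -0.97 for Irx2, -0.77 for Ttr, -0.69 for Slc38a5, 0.11 for Gc and 0.09 for Dpp4, and none of them was called (adjusted p 0.261 to 0.909). The ranges of the groups overlapped for all 8, and how often they do so over all genes was not counted. In these bulk libraries, fewer alpha cells and less RNA per alpha cell cannot be told apart.

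Gcg was the most abundant member and one of the most variable. It stood at 3202 (lowest), 11007 (median) and 26205 (highest) CPM (counts scaled to the TMM-adjusted library size) in positive libraries, against 9887, 13272 and 26943 CPM in negative libraries. The lowest values belonged to positive 3 (3202), positive 1 (5332) and positive 4 (7489), below the negative range, while positive 7 (26205) matched the highest negative libraries. Negative 1, 2 and 3, at 24242 to 26943 CPM, stood apart from negative 4 to 7, at 9887 to 13272 CPM. Gcg averaged 12225 ± 8042 CPM in positive and 17638 ± 7414 CPM in negative cells (SD, n = 7 each). Its log2 fold change was -0.53 ± 0.42 (SE, adjusted p = 0.516), with a 95% interval of -1.42 to 0.36, and positive exceeded negative in 3 of the 7 same-numbered pairs. The value was -1.13 (adjusted p = 0.296) without the libraries numbered 6 and 7, and -0.85 (adjusted p = 0.269) without positive 7 alone. At this spread a large fall and a modest rise both lay within the interval.

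Ttr followed Gcg almost library by library. It was at 194, 597 and 1111 CPM (lowest, median, highest) in positive and at 481, 592 and 1121 CPM in negative libraries. The lowest library of Gcg, positive 3, was also the lowest of Ttr. The fold change of Ttr was -0.32 ± 0.37 on the log2 scale (adjusted p = 0.677). The number of Ttr reads per 1000 Gcg reads ran from 42.4 to 60.6 in positive and from 36.9 to 49.2 in negative libraries, a span of 1.64 times over all 14, whereas Gcg itself spanned 8.41 times and Ttr 5.78 times in CPM.

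The homeodomain factors Irx1 and Irx2, which are known for their alpha cell restricted expression among mouse islet endocrine cells, were low and varied together. Irx1 was at 1.14, 5.11 and 6.86 CPM (lowest, median, highest) in positive and at 4.17, 5.02 and 11.96 CPM in negative libraries. Irx2 was at 3.37, 10.5 and 17.3 CPM in positive and at 11.2, 11.8 and 23.98 CPM in negative libraries. Positive 1, 3 and 4 lay below every negative library for Irx1, and positive 1, 2, 3 and 4 for Irx2, while negative 3 was the highest of all 14 for both. The log2 fold changes were -0.62 ± 0.37 for Irx1 (adjusted p = 0.365) and -0.54 ± 0.33 for Irx2 (adjusted p = 0.372), with intervals of -1.40 to 0.17 and -1.24 to 0.16. Without negative 3, the values were -0.42 and -0.37. The other Iroquois genes Irx3, Irx4, Irx5 and Irx6 had too few reads to be tested, and Irx6 had none in any library.

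The transporter Slc38a5 was at 1.21, 3.47 and 6.22 CPM (lowest, median, highest) in positive and at 2.37, 3.51 and 6.67 CPM in negative libraries. The groups were nearly superimposed, with a log2 fold change of -0.22 ± 0.33 (adjusted p = 0.759). Positive 1 was an exception to its course along Gcg: it held 0.651 Slc38a5 reads per 1000 Gcg reads, the other positive libraries 0.237 to 0.378 and the negative libraries 0.211 to 0.275. The same library held the fewest Irx1 reads per 1000 Gcg reads, 0.214 against 0.262 to 0.541 in the other 13.

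Gc and Dpp4 varied much less than Gcg. Gc was at 48.2, 96.1 and 115 CPM (lowest, median, highest) in positive and at 53.3, 69.9 and 96.1 CPM in negative libraries. Positive exceeded negative in 6 of 7 pairs, with a log2 fold change of 0.23 ± 0.19 (adjusted p = 0.549; 0.302 with the block). Dpp4 was at 71.4, 86.0 and 114 CPM in positive and at 80.8, 88.3 and 105 CPM in negative libraries. It had the narrowest interval of the members, with a log2 fold change of 0.04 ± 0.10 and a 95% interval of -0.18 to 0.26 (adjusted p = 0.860). Over all 14 libraries Dpp4 spanned 1.60 times and Gc 2.38 times.

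Pou3f4 (Brn4), a POU factor that binds the glucagon promoter, was near the limit of detection. It had 2 to 22 reads per library in positive and 6 to 18 in negative cells, or 0.520 ± 0.397 against 0.703 ± 0.224 CPM (SD, n = 7 each), and was not kept by the filter on low counts. In the fit without that filter its log2 fold change was -0.48 ± 0.39 (adjusted p = 0.557, edgeR over 31875 genes). No other POU3 gene had enough reads for the test, and Pou3f2 had none.

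**Figure D1:**
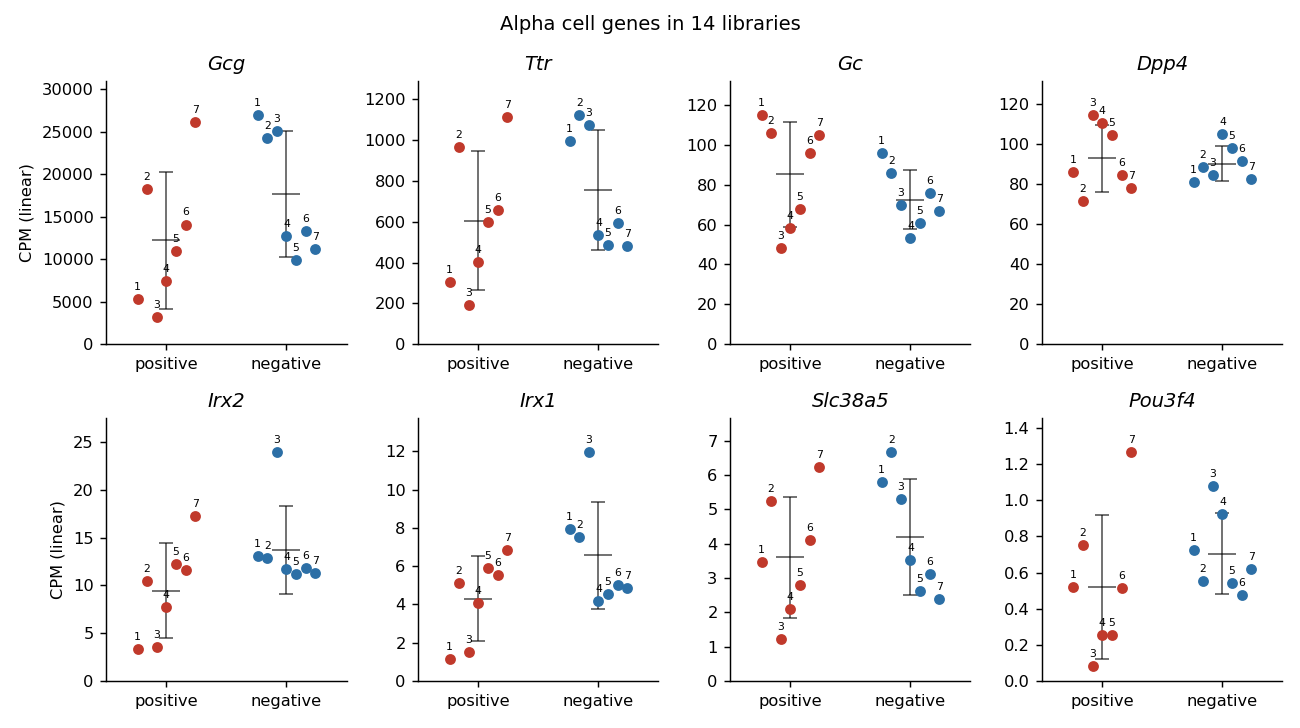
CPM of the 8 alpha cell genes in each library (linear axes from 0; points numbered by replicate, positive red on the left, negative blue on the right; cross bars give the mean and SD of 7 libraries). The groups overlap for all 8 genes; Gcg runs from 3202 to 26205 CPM in positive and from 9887 to 26943 CPM in negative libraries, while Dpp4 stays between 71.4 and 114 CPM.

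Per kilobase of exon, the members fell into the same order in both groups. Gcg was at 8183 ± 5383 RPKM in positive and 11806 ± 4963 RPKM in negative cells (SD, n = 7 each), and Ttr came next at 510.3 ± 286 and 636 ± 247 RPKM. Gc followed at 46.2 ± 14.4 RPKM in positive and 39.3 ± 7.96 RPKM in negative cells, and Dpp4 at 14.7 ± 2.68 and 14.3 ± 1.38 RPKM. Irx2 was at 2.89 ± 1.52 and 4.18 ± 1.40 RPKM, Irx1 at 1.64 ± 0.843 and 2.51 ± 1.07 RPKM, Slc38a5 at 1.60 ± 0.783 and 1.87 ± 0.758 RPKM, and Pou3f4 at 0.178 ± 0.136 and 0.240 ± 0.0766 RPKM. The SDs of Irx2 and Irx1 overlapped in both groups, as did those of Irx1 and Slc38a5. Irx2 and Slc38a5 did not overlap in negative cells, where the lowest Irx2 library was at 3.41 RPKM and the highest Slc38a5 library at 2.98 RPKM. The steps from Gcg to Ttr, Ttr to Gc and Gc to Dpp4 were larger than the SDs. Levels were not compared within each library, so overlapping SDs do not show that Irx2, Irx1 and Slc38a5 had equal levels.

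How the members varied among themselves was described after the mean of each group had been subtracted from log2 CPM. Across the 14 libraries Gcg went with Ttr (Pearson r = 0.99, permutation p = 1e-05, the smallest the 100000 permutations could give; Spearman rho = 0.97, permutation p = 3e-05). It also went with Slc38a5 (r = 0.91, permutation p = 0.00017; rho = 0.85, p = 0.00059), Irx1 (r = 0.87, permutation p = 0.00024; rho = 0.85, p = 0.00049) and Irx2 (r = 0.86, permutation p = 0.00024; rho = 0.88, p = 0.00014). Adjusted over the 6 relations with Gcg, these p were 6e-05 for r and 0.00018 for rho of Ttr, and 0.00036 for r and 0.00042 to 0.000885 for rho of the other 3. Without positive 3 and positive 7, the libraries farthest from the median of Gcg, r was 0.99 for Ttr, 0.82 for Slc38a5, 0.83 for Irx1 and 0.73 for Irx2. Within the 7 positive libraries r was 0.995, 0.89, 0.87 and 0.92 for Ttr, Slc38a5, Irx1 and Irx2, and within the 7 negative libraries 0.98, 0.96, 0.89 and 0.63.

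Gc followed Gcg less closely, and Dpp4 ran against it. Gc had r = 0.65 (permutation p = 0.0325, adjusted 0.0325) and rho = 0.53 (permutation p = 0.0891, adjusted 0.0891), and r was 0.41 without positive 3 and 7, 0.62 within the 7 positive and 0.74 within the 7 negative libraries. Dpp4 had r = -0.69 (permutation p = 0.0209, adjusted 0.0251) and rho = -0.65 (permutation p = 0.0294, adjusted 0.0353), with r = -0.52 without them. Between Gc and Dpp4 r was -0.88, the most negative of the 21 pairs of members. Irx1 and Irx2 had r = 0.96, and 9 of the 21 pairs reached 0.8 or more. Dpp4, although counted among the alpha cell genes, thus did not rise with the others: it was lowest in positive 2 and positive 7, the positive libraries with the most Gcg. All these relations share the 14 libraries and their scaling to the total.

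**Figure D2:**
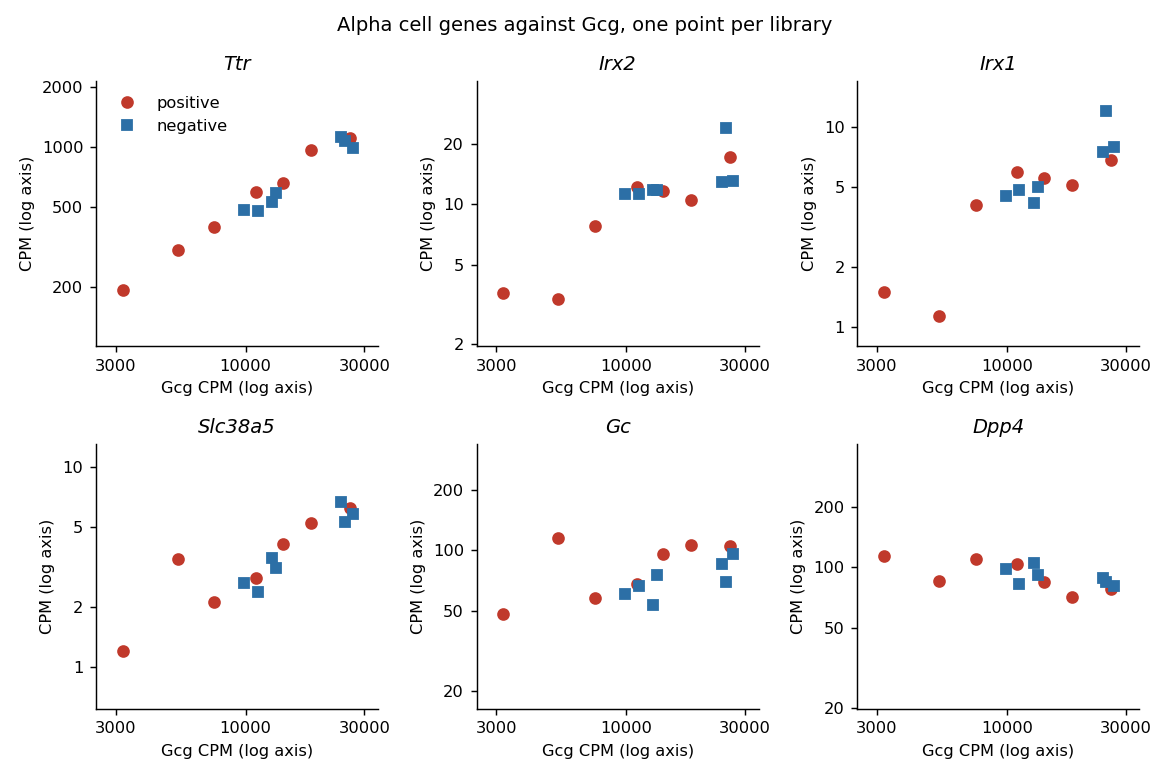
CPM of 6 alpha cell genes against CPM of Gcg, 1 point per library (both axes logarithmic, each vertical axis of equal ratio; positive red circles, negative blue squares). Ttr forms a narrow rising line, Slc38a5, Irx1 and Irx2 rise with Gcg, positive 1 (Gcg 5332 CPM) lies high for Slc38a5 and Gc, and Dpp4 declines slightly.

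The genes whose variation was most like that of Gcg were sought among 11582 other genes with a mean of at least 5 CPM. The 8 closest included, beside Ttr, Gpx3, a secreted glutathione peroxidase (r = 0.98), Vwde, a protein with von Willebrand factor D and EGF domains (0.98), Sfrp5, a secreted Wnt antagonist (0.97), Eef1a2, a translation elongation factor (0.96), C8b, a complement component (0.96), and Smarca1, a chromatin remodeller (0.95). Spearman's rho lay between 0.89 and 0.97 for these 8 genes over the 14 libraries. Only 26 of the 11582 genes reached an r of 0.9. Gpx3 ran from 54.9 to 399 CPM in positive and from 119.5 to 383 CPM in negative libraries, and Eef1a2 from 6.42 to 45.6 CPM and from 11.5 to 40.5 CPM. For Gpx3 the lowest and highest positive libraries were positive 3 and positive 7, as for Gcg. None of the 8 was called between the groups by edgeR, with or without the block. As the genes were picked for their likeness, these r are a description without a test.

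**Figure D3:**
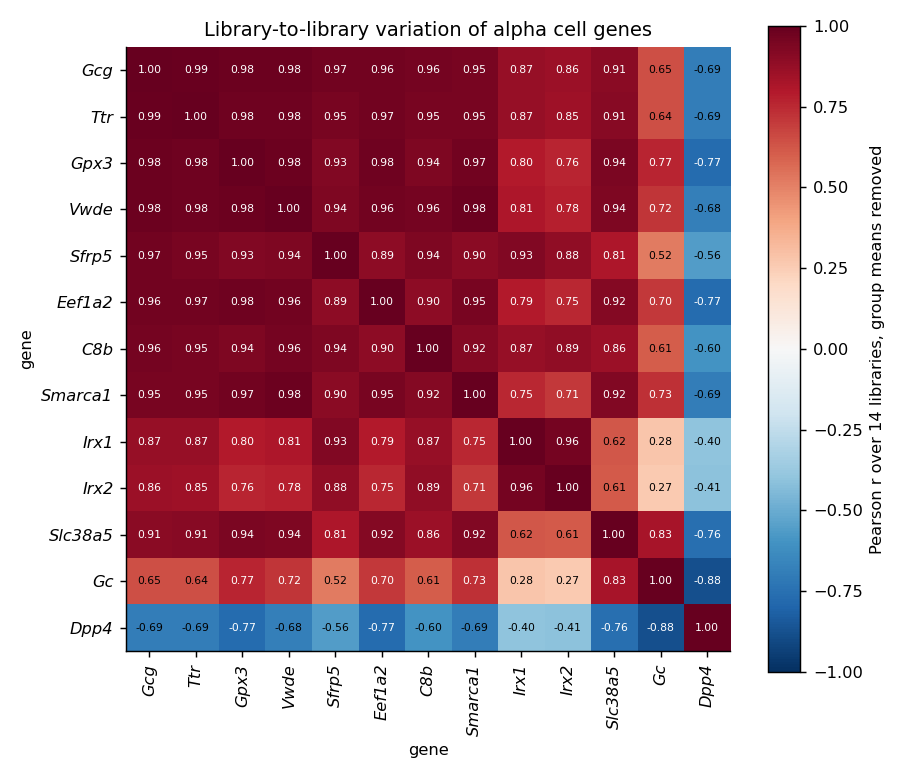
Pearson r between genes over 14 libraries after the group means were removed from log2 CPM (colour from -1, blue, to 1, red; values printed in the cells). Gcg, Ttr and 6 other genes most like Gcg form a block of r from 0.89 upward, Irx1 and Irx2 go together at 0.96, and Dpp4 is negative with all others.

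Of 12 further alpha cell markers 9 were tested, of which 2 rose, 1 fell and 6 were not called (median log2 fold change -0.17). Over all genes tested 6.4% rose and 1.63% fell. Etv1, an ETS factor, was at 45.0 ± 17.2 CPM in positive and 50.8 ± 18.7 CPM in negative cells (SD, n = 7 each; adjusted p = 0.780), and it varied with Gcg (r = 0.82), as did Smarca1. Slc7a2, an arginine transporter, fell to 180.8 ± 24.01 CPM in positive cells, against 249 ± 56.5 CPM in negative cells (log2 fold change -0.46 ± 0.13, adjusted p = 0.0407), and its r with Gcg was 0.27. Dropping any single one of negative 1, 2, 4 and positive 1, 2, 3, 6, 7 ended the call, at adjusted p from 0.0588 to 0.0870. Plce1, phospholipase C epsilon, rose by 2.33 ± 0.46 on the log2 scale (adjusted p = 0.00334), at 1.53 ± 0.763 against 0.293 ± 0.328 CPM, and was at 1.84 (adjusted p = 0.115) without the libraries numbered 6 and 7. Tmem236 rose by 0.98 ± 0.27 (adjusted p = 0.0303), at only 1.02 ± 0.264 against 0.528 ± 0.194 CPM (140 and 61 reads in total). Its r with Gcg was -0.30. Dropping any single one of negative 1, 4, 5, 6, 7 and positive 2, 3, 4, 5, 6 ended the call (0.0504 to 0.0699), as did leaving out the libraries numbered 6 and 7 (0.102).

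**Figure D4:**
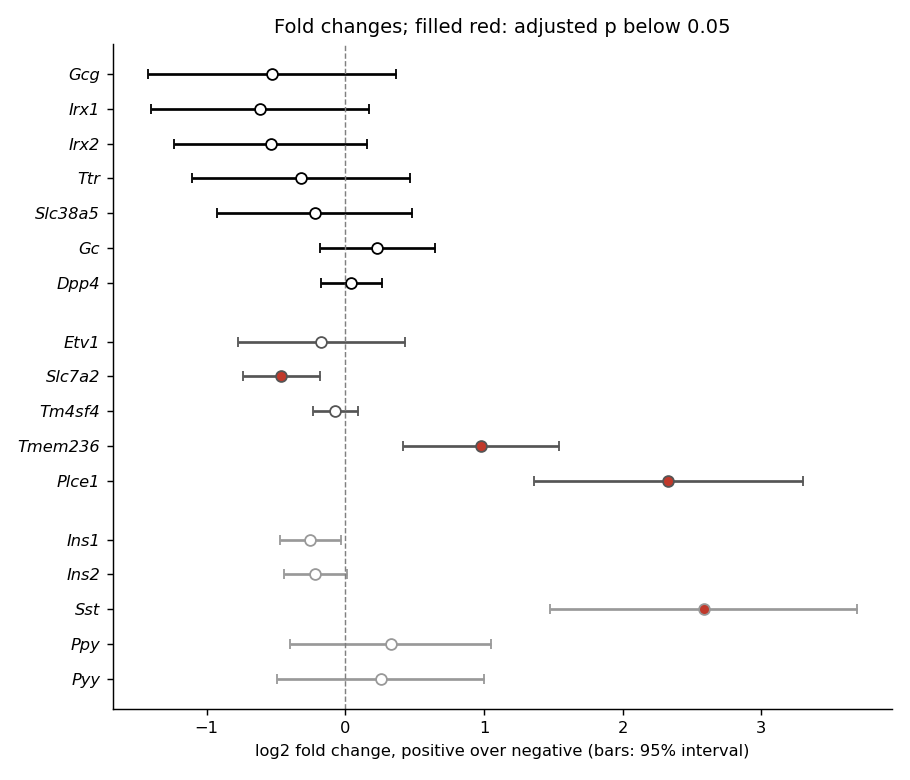
Log2 fold changes of positive over negative cells with 95% intervals for the 7 tested alpha cell genes, for further alpha cell markers and for other islet hormones (filled red points have an adjusted p below 0.05). All 7 intervals at the top include 0, from -1.42 to 0.36 for Gcg to -0.18 to 0.26 for Dpp4, while Sst lies at 2.58.

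Among 10 genes of prohormone processing and the secretory granule, 1 fell and 9 were not called (median log2 fold change -0.09; 2 higher and 2 lower with the block). Over all genes tested 1.63% fell, and with the block 11.8% rose and 7.77% fell, so counts this small do not set the list apart. The convertase gene Pcsk2 was at 2537 ± 202 CPM in positive and 2741 ± 279 CPM in negative cells (adjusted p = 0.452), and its chaperone gene Scg5 at 529.5 and 569 CPM on average (adjusted p = 0.298). Pcsk1n, the inhibitor of PC1, fell by 0.32 on the log2 scale (SE 0.09, adjusted p = 0.0304), and positive lay under negative in all 7 pairs. That call was lost without positive 3 or positive 6 (adjusted p 0.0566 and 0.0604) and without the libraries numbered 6 and 7 (0.185). These genes are shared with beta cells, whose Ins2 was at 60141 to 80652 CPM in positive and 60429 to 93565 CPM in negative libraries.

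Of 16 transcription factors linked to the glucagon gene 13 were tested, of which 1 fell, Neurod1, and 0 rose (median -0.25). With the block 7 fell and 1 rose, and 7.77% of all genes were then called lower and 11.8% higher. Neurod1, a bHLH factor of all endocrine islet cells, changed by -0.40 ± 0.11 on the log2 scale (adjusted p = 0.0303), and dropping any single one of negative 2, 4, 5 and positive 2, 6, 7 ended its call (0.0517 to 0.0624), as did leaving out the libraries numbered 6 and 7 (0.139). Pax6, which binds the glucagon promoter, had -0.29 ± 0.15 (adjusted p = 0.282; 0.0267 with the block). Foxa2, a forkhead factor, had -0.25 ± 0.11 (adjusted p = 0.214; 0.0127 with the block), and positive lay under negative in all 7 pairs. From library to library Pax6 and Foxa2 had an r with Gcg of 0.09 and 0.20.

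Of the glucagon family receptors and ligands 5 of 10 were tested. The glucagon receptor gene Gcgr was at 48.2 ± 12.8 CPM in positive and 63.2 ± 8.61 CPM in negative cells (log2 fold change -0.39 ± 0.16, adjusted p = 0.173), and Glp1r at 59.9 ± 21.6 and 82.0 ± 22.7 CPM (adjusted p = 0.307). Gipr, the receptor of the incretin GIP, fell by 0.52 on the log2 scale (adjusted p = 0.0421), a call that survived the removal of negative 3, positive 1 or positive 5 and ended when any of the other 11 libraries was dropped (0.0545 to 0.0846). It also ended without the libraries numbered 6 and 7 (0.271) and without the filter on low counts (0.0533). Vipr2, a receptor of VIP and PACAP, rose by 0.62 ± 0.14 (adjusted p = 0.00997), and was at 0.55 (adjusted p = 0.173) without the libraries numbered 6 and 7. None of these 5 had an r with Gcg above 0.01.

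The families of 2 members were followed as well. Of 9 tested SLC38 transporters only Slc38a1 was called, a glutamine transporter that rose by 3.69 ± 0.53 on the log2 scale (adjusted p = 0.000337), to 4.28 ± 3.33 CPM against 0.322 ± 0.151 CPM. With the block 3 rose, where 11.8% of all genes did, among them Slc38a2 (0.40 ± 0.15, adjusted p = 0.138; 0.00529 with the block). Slc38a5 was the single tested SLC38 gene with an r of at least 0.8 with Gcg. In the family of Dpp4, Dpp6, a potassium channel subunit without protease activity, rose by 2.19 ± 0.34 (adjusted p = 0.000571) and Prep by 0.32 ± 0.09 (adjusted p = 0.0422), and Dpp9 fell by 0.21 on the log2 scale (adjusted p = 0.0406). For Prep, dropping any single one of negative 1, 2, 5, 6, 7 and positive 3, 4, 5, 6, 7 ended the call (0.0636 to 0.0966). For Dpp9 this held of negative 1, 2, 4, 5, 6, 7 and positive 2, 3, 6, 7 (0.0512 to 0.0817). Both calls also ended without the libraries numbered 6 and 7 (0.255 for Prep, 0.356 for Dpp9) and without the filter on low counts (0.0670 and 0.0502), and that of Dpp9 with library sizes that left out hormone genes (0.0568). Fap, the close relative of Dpp4 on the other side of Gcg, was at 0.570 ± 0.314 CPM in positive and 0.733 ± 0.911 CPM in negative cells and was not tested.

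Glucagon reads were also set against the other islet hormones within each library, a ratio that does not depend on library scaling. The Gcg to Ins2 read ratio was 0.0416, 0.180 and 0.436 (lowest, median, highest) in positive and 0.128, 0.156 and 0.415 in negative libraries. The groups overlapped, and the mean log2 ratio differed by -0.51 (two-sided exact permutation test, p = 0.338; -1.15 with p = 0.0794 without the libraries numbered 6 and 7). The Gcg to Sst read ratio, against somatostatin of delta cells, was 5.40, 11.4 and 13.7 in positive and 34.5, 160.7 and 247 in negative libraries. There was no overlap, and the mean log2 ratio differed by -3.41 (exact permutation p = 0.000583, the smallest this design allows; 0.00175 adjusted over the 3 ratios). Negative 6 and 7 stood apart at 34.5 and 36.0, against 122 to 247 in negative 1 to 5, and they also had the highest summed endothelial markers of the negative libraries (68.8 and 62.2 CPM, against 4.25 to 9.80 CPM). Without the libraries numbered 6 and 7 the difference was -4.14 (exact permutation p = 0.00794), and the part of the endothelial RNA was not tested. Sst itself rose by 2.58 ± 0.51 on the log2 scale (adjusted p = 0.00562, edgeR), at 280.3, 988 and 2025 CPM in positive and 61.5, 126 and 385 CPM in negative libraries. The Gcg to Ppy read ratio, against pancreatic polypeptide, was 2.63, 6.69 and 8.42 in positive and 6.96, 13.8 and 17.5 in negative libraries. Only the lowest negative library, negative 7, lay within the positive range, and the mean log2 ratio differed by -1.02 (exact permutation p = 0.00175; 0.00262 adjusted), although neither Gcg nor Ppy (0.33 ± 0.34, adjusted p = 0.633) was called by itself. Without the libraries numbered 6 and 7 this difference was -1.37 (exact permutation p = 0.00794). In 6 of 7 pairs the ratio was lower in positive than in negative cells (exact sign-flip p = 0.0312).

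**Figure D5:**
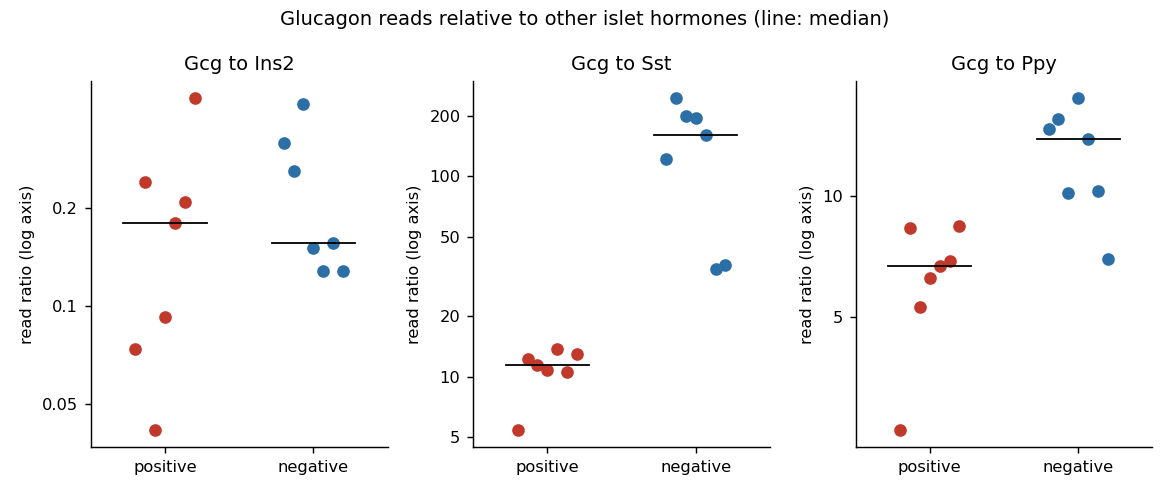
Gcg reads divided by Ins2, Sst or Ppy reads in each library (logarithmic axes; 7 positive libraries red on the left, 7 negative blue on the right, lines at the medians). The groups overlap for Ins2, are apart for Sst (5.40 to 13.7 against 34.5 to 247), and overlap for Ppy through 1 negative library at 6.96.

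RNA of non-endocrine cells differed between the same groups. All 12 tested of 13 macrophage markers and all 12 endothelial markers rose, with summed levels of 75.3 to 629.8 CPM in positive and 17.6 to 23.9 CPM in negative libraries for macrophage markers, and of 390.3 to 1305 CPM and 4.25 to 68.8 CPM for endothelial markers. With the block 11 macrophage markers were called, and C1qa was not (adjusted p = 0.0870, against 0.03996 without it). Of 10 acinar markers 5 fell (9 with the block), with sums of 27.4 to 837 CPM and 134 to 1371 CPM. Over all genes tested 6.4% rose and 1.63% fell, and with the block 11.8% rose and 7.77% fell. With group means removed, r with Gcg over all 14 libraries was 0.23 for the macrophage gene Lyz2, -0.002 for the endothelial gene Kdr and 0.14 for the acinar gene Pnlip. Within the 7 positive libraries r was 0.61 for Lyz2 and 0.75 for Kdr, and within the 7 negative libraries -0.42 and -0.49. In negative libraries both genes were near the floor, with 41 Lyz2 reads in total and a Kdr median of 1.02 CPM (highest 10.1 CPM). Their r within that group therefore carries little weight, and a difference between the groups was not tested. Among positive libraries the macrophage sums were 629.8 and 437.9 CPM in positive 6 and 7, against 75.3 to 106.3 CPM in positive 1 to 5. The endothelial sums were 1305 and 1250 CPM there, against 390.3 to 993.6 CPM. The r of Lyz2 and Kdr within positive libraries may thus rest largely on positive 6 and 7, and it was not computed without them. The part of non-endocrine RNA in the levels of the alpha cell genes was not tested.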

How the data were processed

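RNA was measured in 14 libraries of sorted mouse islet cells. Per the labels' protocols, polyadenylated RNA was selected and libraries were made with a directional kit. Per the submitters' processing notes, reads were placed on GRCm38 with Subread and counted with featureCounts. The sources used here give no versions, annotation or strand setting, so reads of a gene and its antisense partner may be mixed. The values deposited by the authors are raw counts per gene. Groups were taken from the titles.

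Counts were tested with edgeR 4.0.16 in R 4.3.3 (filterByExpr, 16350 genes kept; TMM factors 0.969 to 1.03; robust quasi-likelihood F-test with group as the only term; Benjamini-Hochberg). The test was checked on simulated counts with the same dispersion for all genes and no pairing of replicates. That check does not show how well a change is found in genes as variable as Gcg. CPM used TMM-scaled library sizes, log2 CPM a prior count of 2, and RPKM the union of exons in GENCODE M21. Hormone ratios were compared by exact permutation, correlations by permutation within groups. Alternatives were DESeq2 1.42.0, RLE scaling, no filter, library sizes without hormone genes, the replicate block and left-out libraries.

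Same-numbered libraries of both groups deviated together across genes (r of 0.20 to 0.54 in all 7 pairs, median -0.125 between other numbers). Positive 3, with r = 0.20 to its own number, was closer to negative 4 than to negative 3. The pairing rests on the numbers in the titles. Blocked values are given where they change a call or move a count by over 1.5 times. No label ties a library to an animal, so p-values reflect only library-to-library spread, possibly technical. Of the table's symbols, 91.5% matched 1 GENCODE gene. Members and gene lists were chosen with earlier results of these data known. Named were all members, the 8 genes most like Gcg, called genes of the lists, markers of other cells and the genes within 300 kb of Gcg. Some genes that this rule names are not reported here.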

Additional observations from a re-analysis of the deposited data

Results flagged for a closer look

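Irx2 in negative 3 stood apart from the rest of its group: it was at 23.98 CPM, against 11.2 to 13.1 CPM in the other 6 negative libraries, a gap of 0.851 of the group's range, above Dixon's critical value. The Gcg to Sst read ratio of positive 1 was 5.40, against 10.5 to 13.7 in the other 6 positive libraries, a gap of 0.621 of the range. These 2 were found in 22 sets of 7 libraries examined, and chance alone picks about 1 set in 20.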

How the results depend on the processing

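The 7 tested members had 140 values under 20 alternative fits, and 137 of these values kept their direction and their side of the threshold. Of the 20 fits, 14 each left out 1 library and so share most of their data. The 3 exceptions were those of Dpp4, whose log2 fold change was -0.0147 without positive 3, -0.0043 without positive 4 and -0.0030 without positive 5 (-0.0147 to 0.0865 over the 14 fits that each left out 1 library). The number of members called was 0 under all 20 alternatives run on the counts. The log2 fold change of Gcg ran from -0.85 to -0.36 when single libraries were left out. With the replicate block it was -0.68 ± 0.56, with a larger SE than without it. Gcg of same-numbered libraries had r = -0.52 over the 7 pairs (exact permutation p = 0.220, rho = -0.54 with exact permutation p = 0.236). That r was -0.15 without the 2 farthest pairs. So few pairs do not settle whether same-numbered libraries shared a Gcg level. Over all genes, 1047 were called higher and 266 lower. DESeq2 gave 1602 and 477, the replicate block 1930 and 1270, and the fit without libraries 6 and 7 536 and 45. Leaving out single libraries gave 825 to 1267 higher and 140 to 616 lower; dropping negative 3 gave the 616, and dropping positive 6, 3 or 7 gave 140, 160 or 162 lower. Without libraries 6 and 7, Pyy turned to -0.15 and Ifih1 to -0.18. The block changed no call of a member. The causes were not tested. Depth limited Pou3f4, at most 22 reads in a library.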

Other observations

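Of the genes within 300 kb, Slc4a10, a bicarbonate transporter (0.18 ± 0.09 on the log2 scale, adjusted p = 0.243; 0.0370 with the block), Ifih1, an RNA sensor (0.30 ± 0.24, adjusted p = 0.515), and Gca, a calcium-binding protein (-0.19 ± 0.06, adjusted p = 0.0834; 0.0170 with the block), were not called. Kcnh7, a potassium channel gene, rose to 1.25 ± 0.289 CPM in positive cells, against 0.616 ± 0.111 CPM in negative cells (SD, n = 7 each; log2 fold change 1.00 ± 0.19, adjusted p = 0.00271, edgeR), and it was higher in all 7 pairs.

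Genes better known from other endocrine cells varied along with Gcg too. After the group means were removed, r with Gcg over the 14 libraries was 0.91 for Pyy, peptide YY, 0.80 for Ppy and 0.89 for Rbp4, the retinol-binding protein that transthyretin carries. The AMPA receptor subunits Gria2 and Gria3 had 0.86 and 0.84, whereas another glutamate receptor subunit, Grin1, had -0.78. All of these subunits belong to a list of alpha cell secretion control, whose 21 tested genes had a median r of -0.007. Among the 10 beta cell markers the highest r was 0.02, and Ins2 had -0.39. Rbp4 differed by 1.06 ± 0.39 on the log2 scale (adjusted p = 0.130, edgeR), so it went with Gcg within the groups while its group means lay the other way. These r are descriptions of libraries that share their mix of cells and their scaling, and no p was computed for them.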
